A study of Homo sapiens with 12 samples.

Results

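Integrins and laminins were examined in human iPSC-derived microglia (iMGLs) with and without LACTB, a mitochondrial serine protease. Members were all genes of the deposited count table whose symbol is that of an integrin alpha or beta chain or of a laminin alpha, beta or gamma chain, without ITGAX, ITGAM and ITGB2. This gave 35 of 62703 genes, made up of 5 leukocyte integrin chains (ITGA4, ITGAL, ITGAD, ITGAE and ITGB7), 18 matrix-binding integrin chains and 12 laminin chains. The cells came from WTC11, an established human iPSC line, in which CRISPR editing with non-homologous end joining had given 3 independent isogenic control clones, named J, K and L and called WT, and the 3 LACTB KO clones A, B and C. Every clone was carried through 2 differentiations, first to hematopoietic precursors and then to iMGLs in a medium with IL34, TGFb and MCSF, with CX3CL1 and CD200 added for the last days, and no further treatment was given to either genotype. Polyadenylated RNA of each culture was sequenced, which gave 12 libraries, named here by clone and differentiation (J1 is clone J, differentiation 1).

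Integrins are cell surface receptors of 1 alpha and 1 beta chain that link the cytoskeleton to other cells or to the matrix. The leukocyte integrins mostly bind counter-receptors on other cells, whereas the other members bind collagens, laminins or proteins with the tripeptide motif RGD such as fibronectin and vitronectin. Laminins are secreted trimers of 1 alpha, 1 beta and 1 gamma chain that build the basement membrane, and are made mainly by epithelial, endothelial, muscle and stromal cells, whereas microglia and macrophages are known for leukocyte integrins and for RGD receptors with ITGAV.

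Libraries held 24153233 to 28406943 estimated counts. LACTB itself was at 70.9 to 98.1 CPM (read counts brought to the same total in each library, with TMM factors) in the 6 WT libraries and at 7.51 to 9.78 CPM in those of KO clones A and C. KO clone B kept 59.9% of the WT mean LACTB level, against 12% in A and 9.66% in C. The mean log2 difference over clones was -2.38 (exact two-sided permutation test, p = 0.1, the smallest that 3 clones against 3 allow). Of the 14 microglial markers checked, CSF1R, CX3CR1, SPI1 and TYROBP were high in all libraries (the list summed to between 5572 and 6372 CPM), while TMEM119 and SALL1 were low, at most 10.6 and 0.879 CPM.

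Cultures differed widely in COL1A1, the main fibrillar collagen of stromal cells, and its level is given beside the members throughout. COL1A1 was at 3644 CPM in J1, 239.9 in J2, 7.42 in K1, 2367 in K2, 208.1 in L1 and 19.3 in L2 among WT libraries. In the KO libraries it was at 49.4 CPM in A1, 17.1 in A2, 48.5 in B1, 446.1 in B2, 10.7 in C1 and 7.17 in C2. Both libraries of a clone lay furthest apart in clone K, by 8.30 on the log2 scale, and closest in clone C, by 0.58, and the ranges of the genotypes overlapped. The sum of 11 stromal markers ranged from 22.4 to 9630 CPM in WT and from 18.3 to 952.4 CPM in LACTB KO, and 9 of the 10 that could be tested were lower in KO at an unadjusted p under 0.05. In bulk RNA, fewer cells of a type and less RNA per cell cannot be told apart.

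**Figure D1:**
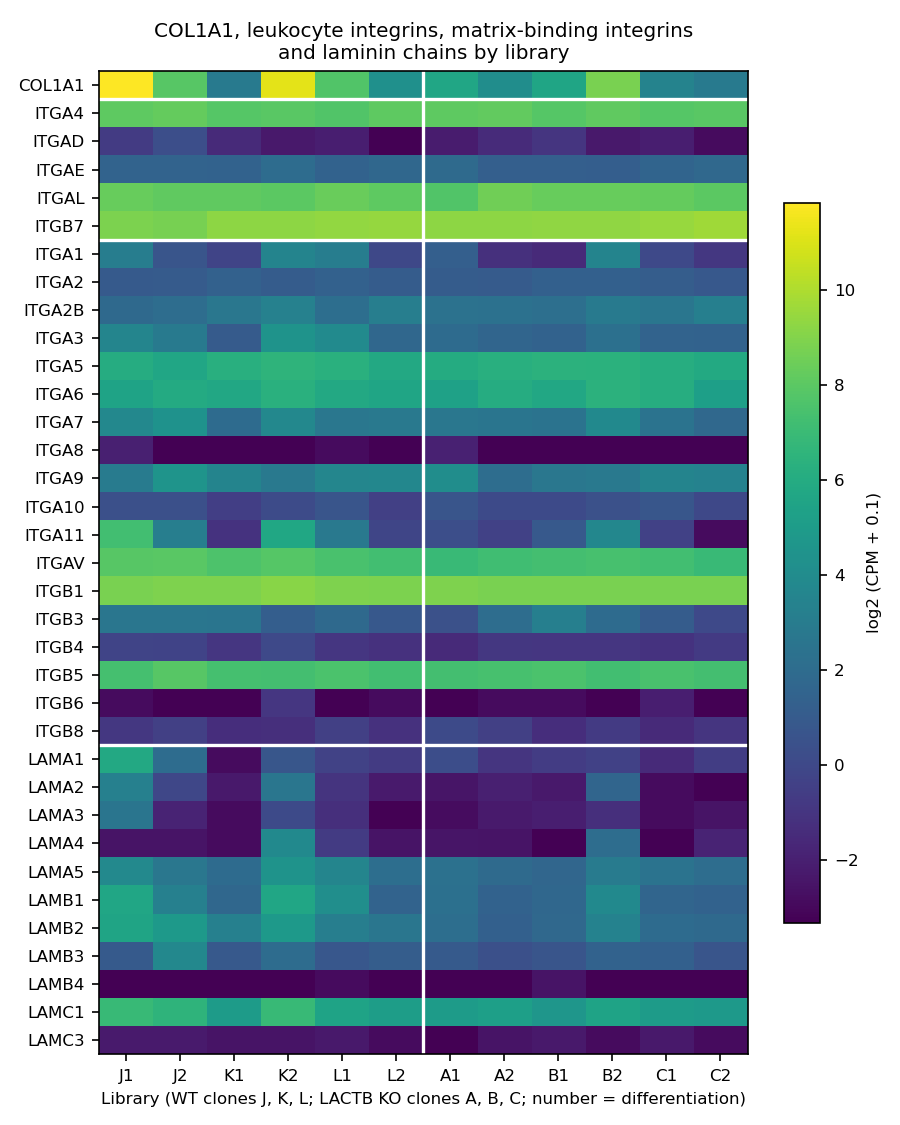
Levels of COL1A1 and members, as log2 (CPM + 0.1), in 12 libraries, with the WT clones on the left and the LACTB KO clones on the right; white lines part the groups. ITGA4, ITGAL, ITGB7 and ITGB1 keep 1 colour across libraries, whereas ITGA11 and LAMB1 are brightest where COL1A1 is high (J1, K2).

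Among the members, which leave out ITGAX, ITGAM and ITGB2, a leukocyte beta chain and the common matrix beta chain had the highest levels. To compare genes, counts were divided by the length of the canonical transcript and scaled to a common sum (TPM). By the median TPM over the 12 libraries the order was ITGB7 (522, range 322 to 674), ITGB1 (288, range 263 to 368), ITGAL (132, range 95.1 to 168), ITGA4 (91.0, range 76.2 to 100), ITGB5 (86.4, range 81.0 to 116), ITGAV (56.4, range 40.5 to 80.2), ITGA5 (40.7, range 25.3 to 52.2) and ITGA6 (22.3, range 15.1 to 35.4). Of these neighbours, ITGB1 lay above ITGAL and ITGB5 above ITGAV without overlap between libraries, and the ranges of all other neighbours overlapped. The most abundant laminin chain was LAMC1, at a median of 10.5 TPM (range 7.08 to 35.5). All other members had medians of at most 3.79 TPM (ITGA2B), and those of ITGA8 and LAMB4 were 0.

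Some of these levels can hold reads of a neighbour, because the library kit does not mark strand and the annotated exons of 22 members overlap another gene. Of the exon length of ITGB7, 42.3% is shared with the antisense gene ZNF740, which was itself at 60.5 to 106.2 CPM against 416.6 to 802.3 CPM for ITGB7. ITGA4 shares 26.4% of its exon length with CERKL, on the opposite strand (0.883 to 6.62 CPM), and ITGB3 shares 33.2% with a read-through gene on its own strand. How the authors' counting divided such reads is not given in the sources used here.

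The leukocyte integrins did not differ between genotypes at an unadjusted p under 0.05. LACTB KO was compared with WT over 3 clones each, on counts summed over both differentiations, by edgeR's quasi-likelihood test, with p adjusted by the Benjamini-Hochberg method over all 17577 genes kept by an expression filter. All 5 chains were tested, 2 lower and 3 higher, and their median log2 fold change was 0.03, against 0.01 for all genes tested. ITGAL, which with ITGB2 binds ICAMs, was at 299.4, 273.7 and 297.2 CPM in WT clones J, K and L and at 300.1, 313.5 and 283.6 CPM in KO clones A, B and C, a log2 fold change of 0.04 ± 0.07 (SE). ITGA4, which pairs with ITGB1 or ITGB7 and binds VCAM1 and fibronectin, was at 285.0, 242.4 and 234.8 CPM in WT and 283.7, 255.8 and 237.4 CPM in KO (0.03 ± 0.11). Clone values of both genes overlapped between genotypes, and the spread over clones was larger than the difference. ITGB7, the partner of ITGA4 and ITGAE, was at 435.6, 617.7 and 674.2 CPM in WT and at 603.9, 648.8 and 754.4 CPM in KO (0.22 ± 0.17, adjusted p = 0.878). WT clone J was the lowest in both of its libraries (454.4 and 416.6 CPM). ITGAE, which binds E-cadherin, lay between 2.19 and 3.98 CPM in all libraries. ITGAD, a further partner of ITGB2, had at most 31 counts, in J2, and 3 or fewer in 5 libraries.

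Among the 18 matrix-binding integrins, 16 were tested (ITGA8 and ITGB6 did not pass the filter) and 3 of them, ITGA3, ITGA11 and ITGAV, were lower in LACTB KO at an unadjusted p under 0.05. Their median log2 fold change was -0.16, and none was higher at that threshold. For comparison, 5.56% of all genes tested were lower and 0.802% higher at that threshold. By adjusted p 0% of all genes passed in either direction, so that LACTB itself did not pass. Over all members, 23 of 31 had a negative fold change, 10 were lower and 0 higher at an unadjusted p under 0.05, and 0 passed the adjusted threshold. DESeq2 on the same clone sums gave 10 lower and 0 higher at an unadjusted p under 0.05. These held LAMB3 in place of LAMA1, for which DESeq2 gave no p. At an adjusted p under 0.05 it gave 4 members (ITGA3, LAMA5 and LAMC1 among them), where it called 167 genes lower and 4 higher in all.

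ITGA3, a laminin receptor chain that pairs with ITGB1 (chr17:50055968-50090481, plus strand, GRCh38), had the smallest p of all 17577 genes. Clone sums were at 9.73, 12.1 and 9.44 CPM in WT clones J, K and L and at 3.34, 3.66 and 2.64 CPM in KO clones A, B and C. All KO clones were below all WT clones, which held for 6.37% of the genes tested, and the log2 fold change was -1.70 ± 0.18 (edgeR, adjusted p = 0.639). Within WT clones, however, the libraries were far apart, with 11.9 and 7.56 CPM in J1 and J2, 1.98 and 22.0 in K1 and K2, and 15.3 and 3.23 in L1 and L2. The KO libraries lay between 2.57 and 4.70 CPM and none was below K1, the lowest WT library. In each WT clone the library with more COL1A1 was the one with more ITGA3. Without J1 and K2, the libraries with most COL1A1, the log2 fold change was -0.99, and a limma voom fit of the single libraries with clone as a random effect gave -1.30. With COL1A1 as a covariate in that fit it was -0.75. In all 3 of these fits the unadjusted p was over 0.05.

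The other laminin receptor alpha chains were ITGA6 and ITGA7. ITGA6 was at 44.3 to 79.5 CPM in WT and 37.1 to 84.0 CPM in KO libraries (log2 fold change 0.03 ± 0.14), and ITGA7, known from muscle, at 3.89 to 21.0 and 3.44 to 14.4 CPM (-0.67 ± 0.43, adjusted p = 0.878). Their ranges overlapped almost entirely. ITGB4, the partner that anchors ITGA6 in hemidesmosomes, had 6 to 26 counts a library.

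Of the collagen receptor chains, ITGA11, known from fibroblasts (chr15:68296532-68432163, minus strand), was at 78.8, 26.6 and 3.93 CPM in WT clones J, K and L and at 0.899, 7.38 and 0.348 CPM in KO clones A, B and C. KO clone B was above WT clone L, so the genotypes overlapped (log2 fold change -3.66 ± 1.36, adjusted p = 0.752). Single libraries ran from 1 count in C2 to 3983 counts in J1, and the COL1A1 of the clones had the same order (1931, 1203 and 116.5 CPM in WT, 32.3, 250.5 and 8.98 CPM in KO). The limma voom fit of single libraries gave -2.91, and -0.09 with COL1A1 as a covariate in that fit. The edgeR fit gave -0.59 without J1 and K2 and -2.40 without WT clone J. In each of these fits the unadjusted p was over 0.05. ITGA1 was at 5.02, 6.20 and 4.82 CPM in WT and at 1.25, 5.83 and 0.678 CPM in KO, where clone B again stood with the WT clones (-1.05 ± 0.72). ITGA2 and ITGA10 were at most 2.53 and 1.55 CPM in any library.

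ITGAV, the alpha chain of RGD receptors that pairs with ITGB1, ITGB3, ITGB5, ITGB6 or ITGB8 (chr2:186590010-186680901, plus strand), was at 243.3, 208.7 and 162.6 CPM in WT clones and at 134.7, 165.6 and 135.7 CPM in KO clones. KO clone B lay just above WT clone L, and 4 of the 6 KO libraries were lower than all WT libraries. Its log2 fold change was -0.49 ± 0.16 (edgeR, adjusted p = 0.726). Its value was -0.49 by limma voom, -0.47 without J1 and K2 and -0.36 with COL1A1 as a covariate, each with an unadjusted p under 0.05. Leaving out KO clone A or C gave -0.44 in both cases, with an unadjusted p over 0.05.

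The RGD receptor partners of ITGAV and the other RGD alpha chains did not pass the unadjusted threshold. ITGB1, which also serves collagen and laminin receptors, was at 458.3, 522.9 and 466.5 CPM in WT and 462.0, 439.4 and 440.5 CPM in KO (-0.11 ± 0.08), and ITGB5 at 154.3 to 237.3 CPM in WT and 152.2 to 184.4 CPM in KO libraries (-0.09 ± 0.09). Both varied little, with a highest library 1.30 times the lowest for ITGB1 and 1.56 times for ITGB5. ITGA5, the fibronectin receptor chain, had a log2 fold change of 0.06 ± 0.15, and ITGA2B, the platelet chain, of 0.003 ± 0.297. The megakaryocyte and platelet markers PF4 and PPBP had 0 CPM in all 12 libraries, and GP9 and GP6 at most 0.0752 CPM. Of the same list, GP1BA (0.996 to 2.556 CPM) and TUBB1 (0.2225 to 1.406 CPM) were detected in all libraries. ITGA2B had 95 to 283 counts. ITGB3, which pairs with ITGAV or ITGA2B, varied from 0.897 CPM in C2 to 9.33 CPM in B1. ITGB8, which with ITGAV releases active TGF-beta, had 7 to 23 counts a library. ITGA9 was at 4.24 to 22.9 CPM (-0.40 ± 0.26).

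**Figure D2:**
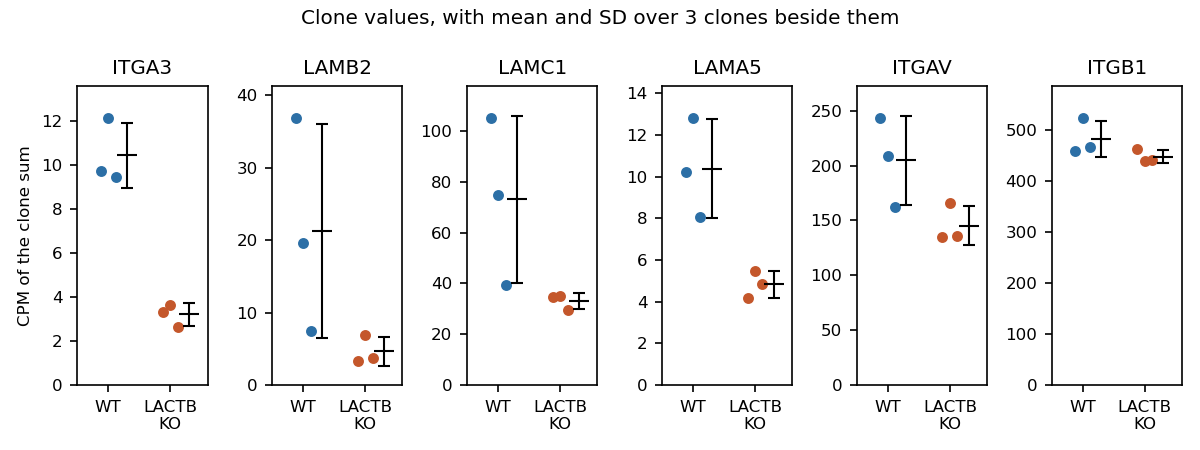
CPM of clone sums for 6 members, each point 1 clone (n = 3 per genotype), with the mean and SD beside the points; the vertical axes start at 0. KO clones lie below all WT clones for ITGA3, LAMB2, LAMC1 and LAMA5, and the genotypes overlap for ITGAV and ITGB1.

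Laminin chains had a lower median fold change in LACTB KO than either group of integrins. Of 12 chains, 10 were tested (LAMB4 and LAMC3, with at most 2 and 3 counts a library, were not). All 10 had negative fold changes with a median of -2.16, 7 were lower in LACTB KO at an unadjusted p under 0.05 (LAMA1, LAMA3, LAMA5, LAMB1, LAMB2 and LAMC1 among them), and 0 passed the adjusted threshold. Clones of the genotypes did not overlap for 5 of them, among which were LAMA5, LAMB1, LAMB2 and LAMC1. With ITGA3 this made 6 of 31 members with all KO clones below all WT clones, whereas 0 had them all above (4.38% of all genes did). The summed laminin level was 101 TPM in J1, 49.9 in J2, 16.3 in K1, 86.8 in K2, 32.1 in L1 and 16 in L2, and 11.7 to 30.7 TPM in the KO libraries. WT libraries K1 and L2, which had little COL1A1, thus lay within the KO range.

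LAMB2, a beta chain of muscle, kidney and vessel basement membranes (chr3:49121114-49133118, minus strand), was at 36.9, 19.6 and 7.41 CPM in WT clones J, K and L and at 3.30, 6.97 and 3.68 CPM in KO clones A, B and C. In single libraries it was at 46.2, 27.6, 9.59, 29.4, 8.79 and 6.03 CPM from J1 to L2, and at 4.27, 2.44, 3.36, 10.5, 3.85 and 3.51 CPM from A1 to C2, so that 5 of the 6 KO libraries lay under all WT libraries and B2 was the exception. Its log2 fold change was -2.19 ± 0.59 (edgeR, adjusted p = 0.726). It was the member whose unadjusted p stayed under 0.05 in all 15 alternative fits, with log2 fold changes from -2.60 to -1.22. The value nearest to 0 came from limma voom with COL1A1 as a covariate (-1.22), where the same fit without COL1A1 gave -1.97. Without J1 and K2 the edgeR value was -1.67.

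LAMC1, the gamma chain of most laminins (chr1:183023420-183145592, plus strand), was at 105.1, 74.7 and 39.4 CPM in WT clones and at 34.8, 35.1 and 29.5 CPM in KO clones, a log2 fold change of -1.14 ± 0.32 (edgeR, adjusted p = 0.726). In WT it was high in both libraries of clone J (116.2 and 94.0 CPM) and in K2 (116.4), and at 31.7 to 44.8 CPM in K1, L1 and L2. The KO libraries were at 25.0 to 44.6 CPM, and 4 of the 6 were lower than all WT libraries. By limma voom its log2 fold change was -0.96, and -0.51 with COL1A1 as a covariate, each with an unadjusted p under 0.05. By edgeR without J1 and K2 it was -0.74, with one over 0.05.

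LAMA5, the broadly expressed alpha chain (chr20:62307955-62367312, minus strand), was at 10.2, 12.8 and 8.07 CPM in WT and at 4.20, 5.47 and 4.84 CPM in KO clones (-1.10 ± 0.20, adjusted p = 0.726), the 15th smallest p of all genes. LAMB1, the beta chain of early and widespread laminins (chr7:107923799-108003213, minus strand), was at 30.1, 26.7 and 10.6 CPM in WT and at 3.58, 9.05 and 2.78 CPM in KO (-2.13 ± 0.56, adjusted p = 0.726). For both genes K1 and L2 lay within the range of the KO libraries. Without J1 and K2 their log2 fold changes were -0.35 and -0.61 by edgeR. By limma voom they were -0.89 and -1.63, and with COL1A1 as a covariate in that fit -0.34 and -0.39. Each of these values had an unadjusted p over 0.05.

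The remaining chains rested on few libraries. LAMA1, an alpha chain of early embryonic and epithelial basement membranes, had 1526 of its WT counts in J1 and 107 in J2, against 1 to 44 in the other WT and 7 to 27 in the KO libraries. Its log2 fold change of -4.18 ± 1.56 (adjusted p = 0.752) was -0.28 without WT clone J. LAMA3, an epithelial chain, had 157 counts in J1 and at most 27 elsewhere (-3.30 ± 1.15, and -1.42 without clone J). LAMA2, the chain of muscle and nerve, had 258 counts in J1, 175 in K2 and 83 in B2 but at most 23 in the others (-2.36 ± 1.41, adjusted p = 0.878). LAMA4, the chain of vessel walls, had 404 counts in K2 and 116 in B2 but at most 15 in the others (-1.75 ± 1.73, adjusted p = 0.881), and its fold change was 1.96 without WT clone K. LAMB3, an epithelial chain, had 354 counts in J2 and 32 to 115 elsewhere (-1.15 ± 0.50, adjusted p = 0.801).

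**Figure D3:**
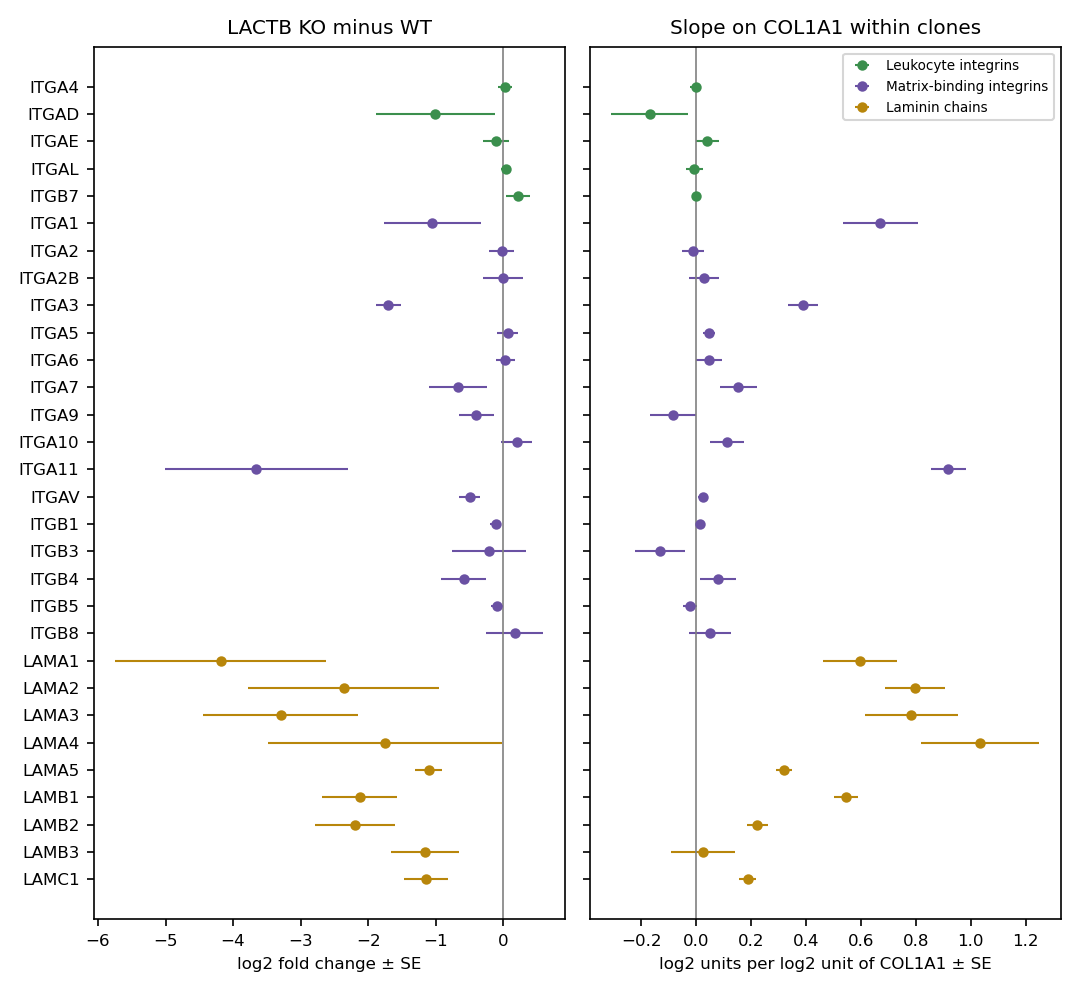
Log2 fold change of LACTB KO against WT over clones (left, n = 3 against 3) and slope on log2 COL1A1 within clones (right, n = 12 libraries), each with its SE, for members tested. Laminin chains lie to the left of 0 in the left panel and, apart from LAMB3 at 0.03, to the right of 0.15 in the right panel, while the leukocyte chains lie near 0 in both, apart from ITGAD, which had few counts.

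The count of members lower in LACTB KO changed with the libraries, clones and model used. It was 2 of 29 without J1 and K2 (ITGAV and LAMB2), a fit that took collagen-rich libraries from WT only and kept B2. By limma voom with COL1A1 as a covariate it was 3 of 31 (ITGAV, LAMB2 and LAMC1). By limma voom without the covariate it was the same 3, so adding COL1A1 to that fit did not change the count. Over all genes the count of 977 in the main fit also fell, to 349 of 17265, 239 of 17577 and 504 of 17577 in these fits. Differentiation 1 alone gave 9 of 27 and differentiation 2 alone 5 of 28, beside 455 of 15708 and 372 of 15692 over all genes. Leaving out WT clone J, K or L gave 7, 10 and 12, and leaving out KO clone A, B or C gave 6, 11 and 6, so that the count did not rest on clone B with its remaining LACTB. Over all genes, the counts without J, K or L were 655, 1065 and 1625, and those without A, B or C were 461, 818 and 593. Stromal markers moved in the same direction as the laminins between genotypes, and their part in the result was not tested beyond these fits.

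Because COL1A1 differed so much between differentiations of a clone, members were next compared with it inside clones, where the genotype is fixed. Over the 12 libraries, each gene's log2 level was fitted on log2 COL1A1 with a term for each clone (edgeR, 17576 genes, COL1A1 itself left out). Adjusted p was under 0.05 with a rising slope for 10 of 31 members, against 2.43% of all genes tested, and with a falling slope for 0 members, against 0.159% of all genes. The risers were 7 of 10 laminin chains and 3 of 16 matrix-binding integrins (ITGA11, ITGA1 and ITGA3), and there were none among the 5 leukocyte chains, of which 0 also had an unadjusted p under 0.05 (edgeR). With limma voom 11 members and 466 of all genes rose.

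ITGA11 followed COL1A1 almost unit for unit, with a slope of 0.92 ± 0.06 log2 units for each log2 unit of COL1A1 (adjusted p = 0.000132). From the library of a clone with less COL1A1 to that with more, it went from 8.75 to 149.7 CPM in clone J, 0.360 to 52.0 in K, 0.797 to 6.89 in L, 0.664 to 1.16 in A, 1.77 to 12.8 in B and 0.0374 to 0.648 in C. Both libraries of clone C had little COL1A1 (7.17 and 10.7 CPM), and its ITGA11 values were 1 and 18 counts. The rise was seen in both genotypes. LAMB1 had a slope of 0.55 ± 0.04 (adjusted p = 0.000295), with 9.60 and 50.8 CPM in clone J, 3.28 and 49.5 in K, 2.73 and 18 in L, 2.62 and 4.64 in A, 3.29 and 14.6 in B and 2.65 and 2.92 in C. Its slope passed in all 12 alternative fits, with values from 0.52 to 0.86.

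Other rising slopes were 1.03 ± 0.22 for LAMA4, 0.80 ± 0.11 for LAMA2, 0.67 ± 0.14 for ITGA1, 0.39 ± 0.05 for ITGA3, 0.32 ± 0.03 for LAMA5, 0.22 ± 0.04 for LAMB2 and 0.19 ± 0.03 for LAMC1. LAMC1 and LAMB2 thus changed less per unit of COL1A1 than LAMB1 and ITGA11 did, a difference that was not tested. ITGAV had a slope of 0.02 ± 0.02 (adjusted p = 0.600), and those of ITGB1, ITGB5, ITGB7, ITGA4 and ITGAL were 0.02 ± 0.02, -0.02 ± 0.03, -0.0003 ± 0.0146, -0.0011 ± 0.0204 and -0.01 ± 0.03. The library with more COL1A1 was also the higher in all 6 clones for 8 of 31 members (among them ITGA1, ITGA3, ITGA10, ITGA11, LAMA5, LAMB1 and LAMB2), against 3.53% of all genes.

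The wide slopes rested in part on clone K and on J1 and K2. Without WT clone K, 3 slopes passed (ITGA11 at 0.97, LAMB1 at 0.67 and LAMA5 at 0.36), and without J1 and K2, 2 passed (LAMB1 at 0.71 and ITGA1 at 1.31). Over all 17576 genes, 147 and 66 rose in these fits, against 427 in the main fit. All slopes with an unadjusted p under 0.05 kept a positive sign in all 12 alternatives. With the mean of DCN, LUM and PDGFRB in place of COL1A1, 8 members and 356 of all genes rose.

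**Figure D4:**
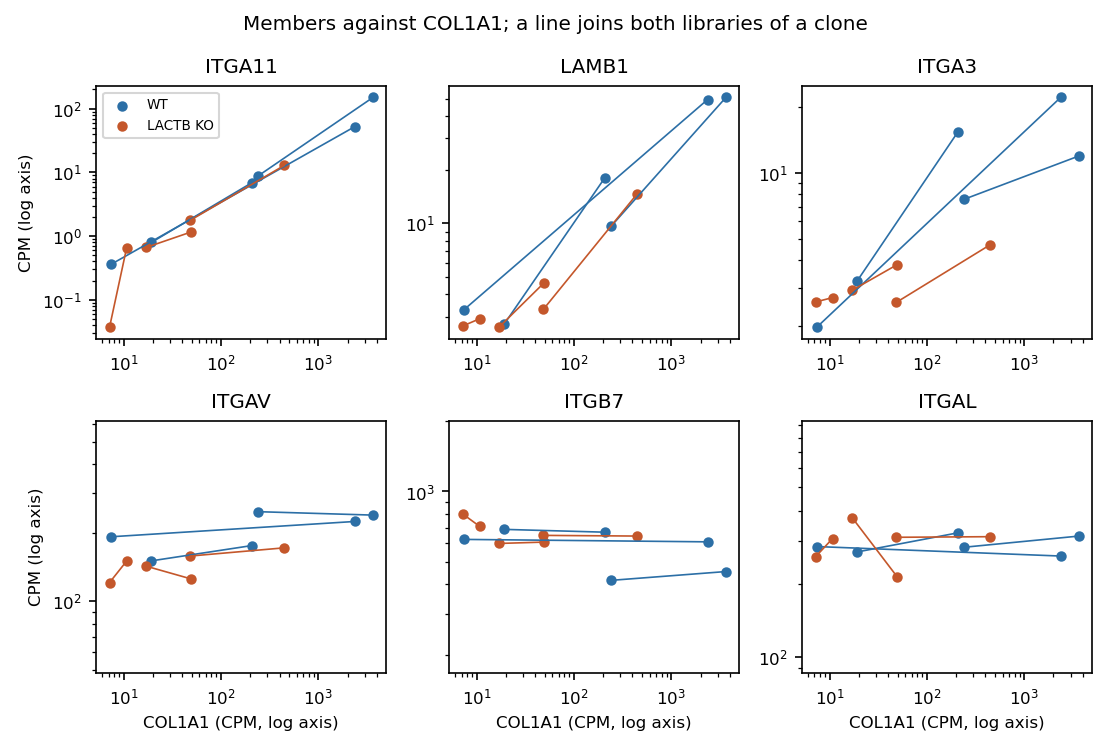
CPM of 6 members against CPM of COL1A1 on log axes, each point 1 library and each line joining both libraries of a clone (WT blue, LACTB KO orange). ITGA11 and LAMB1 climb with COL1A1 in every clone, from 0.0374 to 149.7 CPM for ITGA11, while ITGAV, ITGB7 and ITGAL do not. In clone A, ITGAL is lower in A1 (214.7 CPM), which has more COL1A1, than in A2 (375.5 CPM). The vertical axes are widened for genes of narrow range.

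Upstream sequences are shown for a collagen receptor chain and a laminin chain that rose with COL1A1 (ITGA11 and LAMB1). ITGB7, the most abundant leukocyte chain among the members, which did not rise, is shown beside them. Each line holds the 250 bases before the RefSeq start on GRCh38.p14, read along the minus strand on which all 3 genes lie, from chr15:68432164-68432413, chr7:108003162-108003411 and chr12:53207252-53207501. Capitals mark matches to the letters of a GC box (GGGCGG), the core of a site for the myeloid factor PU.1 (GAGGAAG), an AP-1 site (TGACTCA) or a TATA box (TATAAA), on either strand.
ITGA11: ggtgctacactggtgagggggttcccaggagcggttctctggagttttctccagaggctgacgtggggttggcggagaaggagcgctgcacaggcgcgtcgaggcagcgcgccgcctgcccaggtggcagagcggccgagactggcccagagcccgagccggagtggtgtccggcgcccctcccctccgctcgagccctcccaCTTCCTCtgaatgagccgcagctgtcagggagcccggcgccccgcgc
LAMB1: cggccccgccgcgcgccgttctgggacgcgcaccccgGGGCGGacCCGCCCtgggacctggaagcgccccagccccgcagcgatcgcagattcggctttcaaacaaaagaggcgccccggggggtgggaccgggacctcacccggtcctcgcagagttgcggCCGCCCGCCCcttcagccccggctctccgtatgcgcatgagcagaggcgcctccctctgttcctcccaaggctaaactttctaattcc
ITGB7: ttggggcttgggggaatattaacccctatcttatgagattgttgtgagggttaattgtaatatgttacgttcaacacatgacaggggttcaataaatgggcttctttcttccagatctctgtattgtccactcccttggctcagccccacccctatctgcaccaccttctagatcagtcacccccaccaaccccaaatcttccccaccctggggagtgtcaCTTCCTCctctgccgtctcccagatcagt

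The LAMB1 window held 4 GC box matches, of which a pair overlaps, and none of the other letters. ITGA11 and ITGB7 each held 1 match to the PU.1 core and no GC box. The PU.1 core letters occurred in 11.3% of 34788 distinct upstream windows of this length in the RefSeq table and in 8 of the 25 members that have a window (ITGB7 and ITGAE among leukocyte chains, ITGA11, ITGAV and ITGB5 among matrix-binding chains, and LAMA3, LAMA4 and LAMC1). The GC box letters occurred in 42.6% of all windows and in 13 of the 25 members, 7 of them matrix-binding integrins and 6 laminins. The TATA box letters were in the windows of ITGA6 and ITGB1 (10.8% of all windows) and the AP-1 letters in those of LAMA3 and LAMB3 (4.21%). Such matches are letters in a window and not measured binding.

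The makeup of the laminin alpha chains differed among the collagen-rich cultures. In J1, LAMA1 made up 65.9% of 2317 alpha chain counts (95% Wilson interval 63.9 to 67.8%) and LAMA4 0.0863% (0.0237 to 0.314%). In K2, LAMA4 made up 32.1% of 1260 counts (29.5 to 34.7%) and LAMA1 3.49% (2.61 to 4.66%). B2, the KO library with most COL1A1, was like K2, with 26.0% LAMA4 (22.1 to 30.2%) and 4.25% LAMA1 (2.74 to 6.54%) of 447 counts. By counts LAMA5 led in all libraries but J1, with 48.4 to 94.7% in the other 11, whereas per length LAMA4 also led in K2 (4.76 TPM against 4.55 for LAMA5). These intervals cover counting error only, and each library is 1 culture.

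Other markers also set J1 apart from K2 and B2. DCN, a proteoglycan of fibroblasts, was at 84.1 CPM in J1, 1.13 in K2 and 0.388 in B2, and POSTN, a matrix protein, at 0.263, 95.9 and 24.9 CPM in the same libraries. KRT8 and KRT18, keratins of simple epithelia, were at 128.4 and 82.7 CPM in J1 and at 20.4 to 31.7 and 18.4 to 26.5 CPM elsewhere. The other epithelial markers checked did not set J1 apart. EPCAM, KRT19 and CDH1 were at 1.203, 3.684 and 0.3383 CPM there, within their ranges elsewhere (1.144 to 2.915, 2.527 to 6.155 and 0.2485 to 3.676 CPM). KDR, a receptor of endothelial cells, was at 6.20 CPM in J1 and 2.41 in J2 against at most 0.221 elsewhere. CDH5, the defining endothelial cadherin, was at most 0.0752 CPM. J2 stood apart in other members, with the highest ITGA9 (22.9 CPM), LAMB3 (13.1), ITGB5 (237.3) and ITGA7 (21.0), and also in TMEM119 (10.6 CPM) and TREM2 (406.2 CPM). The microglial markers did not all move together in J2. C1QA, C1QB, GPR34, MERTK and TYROBP were also highest there, whereas CSF1R was at its lowest (1372 CPM). CX3CR1 (581.5 CPM) and P2RY12 (65.3 CPM) were near the low end of their ranges in J2. The part of these cells or states in the laminin levels was not tested.

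**Figure D5:**
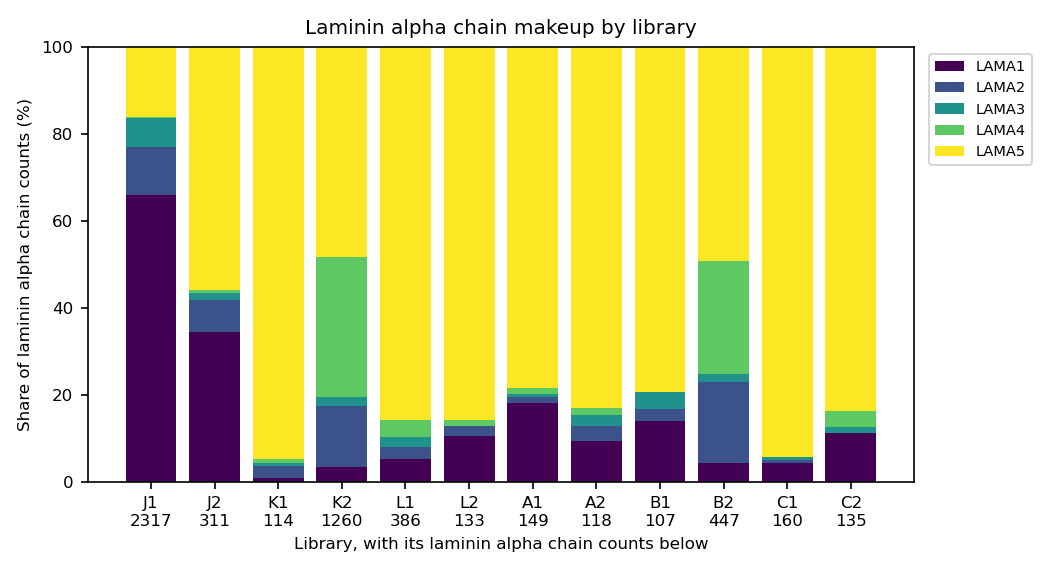
Share of each laminin alpha chain in the alpha chain counts of a library (bars sum to 100%), with the number of counts under each library name. LAMA1 fills 65.9% of J1, LAMA4 is seen mainly in K2 (32.1%) and B2 (26.0%), and LAMA5 has most counts in the other 11 libraries.

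Among beta chains, the share of LAMB1 in the library of a clone with less and in that with more COL1A1 was 22.4% of 407 counts (18.6 to 26.7%) and 59.7% of 2353 (57.7 to 61.7%) in clone K, 25.1% of 287 and 63.3% of 810 in L, and 19.1% of 1357 and 51.4% of 2631 in J. In KO clones it was 39.9% of 228 (33.8 to 46.4%) and 52.9% of 783 (49.4 to 56.3%) in B, 42.0% of 169 and 43.1% of 260 in A, and 34.6% of 205 (28.5 to 41.4%) and 31.6% of 256 (26.3 to 37.6%) in C. The library with more COL1A1 thus had the larger share in J, K, L and B, whereas the intervals overlapped in A and C. LAMB2 held 30.9 to 65.4% of beta counts, and LAMB3 reached 26.1% in J2 and 26.6% in C1.

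No member passed the adjusted threshold for the differentiation or for its interaction with genotype. Differentiation 2 was compared with 1 over the 12 libraries in a fit with a term for each clone, and 0 of 31 members and 0% of all genes had an adjusted p under 0.05 by edgeR. At an unadjusted p under 0.05 there were 2 members, ITGA2B (log2 difference 0.53 ± 0.16, adjusted p = 0.386) and ITGA4 (0.18 ± 0.06, adjusted p = 0.426), both higher in differentiation 2. Of all 17577 genes, 963 were higher and 625 lower at that threshold. DESeq2 found the same 2 at that threshold and 0 at the adjusted one. Over all genes it found 994 higher and 546 lower at the former, and 236 higher and 71 lower at the latter. The library of a clone with more COL1A1 was that of differentiation 1 in clones J, L, A and C and that of differentiation 2 in K and B, so that members following COL1A1 moved in opposite directions in different clones. For the interaction of genotype and differentiation, edgeR gave 0 of 31 members and 0% of all genes at the adjusted threshold and 0 members at an unadjusted p under 0.05, whereas DESeq2 gave 2 (LAMA3 and LAMB3) at the latter and 0 at the former. Of all 17577 genes, 175 passed the unadjusted threshold in edgeR. In DESeq2, 94 with a negative and 68 with a positive term did. Without WT clone K, 8 members had an unadjusted p under 0.05 for the interaction in edgeR, all with a positive term, and 0 an adjusted one. Of all 17577 genes, 787 with a positive and 547 with a negative term passed the unadjusted threshold in that fit.

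Partner genes of integrins and laminins were described from 6 lists. None of their genes had an adjusted p under 0.05 between genotypes in the main fit, and alternative fits are not given for them. Counts of the lists stand beside 5.56% of all genes tested that were lower and 0.802% that were higher at an unadjusted p under 0.05, and 2.43% that rose with COL1A1. Of 15 tested partners of laminins in the basement membrane, 8 were lower and 0 higher at an unadjusted p under 0.05, with a median of -1.25, and 10 rose with COL1A1. The 3 with the smallest p were COL4A5, a collagen IV chain (-2.28 ± 0.57), AGRN, agrin (-0.90 ± 0.24), and FBLN2, fibulin (-2.09 ± 0.56). Of 27 integrin ligands other than laminins, 8 were lower and 0 higher (median -1.03), and 12 rose with COL1A1. The smallest p were those of the matricellular CCN2 (-2.51 ± 0.71), MFGE8, which bridges apoptotic cells to ITGAV receptors (-1.03 ± 0.29), and VCAM1, the ligand of ITGA4 (-1.69 ± 0.48). CCN2 was at 58.7 ± 65.3 CPM in WT and 10.4 ± 13.0 CPM in KO libraries (SD, n = 6 each). VCAM1 was low in both, at 1.34 ± 0.96 and 0.413 ± 0.435 CPM.

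Laminin receptors other than integrins had 7 of 14 lower and 0 higher (median -0.57), although only 1 rose with COL1A1. These were led by the syndecans SDC3 (-1.67 ± 0.38) and SDC2 (-1.35 ± 0.37) and the glypican GPC1 (-0.72 ± 0.20). SDC3 was at 9.98 ± 6.86 CPM in WT and 3.17 ± 1.70 CPM in KO libraries (SD, n = 6 each), and its slope on COL1A1 was -0.06 ± 0.11. Like ITGAV, SDC3 was thus lower at the unadjusted threshold with a slope on COL1A1 that did not pass (edgeR, adjusted p = 0.858 for SDC3 and 0.600 for ITGAV).

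Inside the cell, 7 of 33 activators and adaptors of integrins were lower and 1 higher, with a median of -0.05. PARVA (parvin, -2.50 ± 0.70), TNS1 (tensin, -2.46 ± 0.70) and VCL (vinculin, -0.51 ± 0.15) had the smallest p, and the slopes on COL1A1 of PARVA and TNS1 were 0.56 ± 0.05 and 0.63 ± 0.05. Of 20 kinases and exchange factors 2 were lower and 0 higher (median 0.08), close to the 5.56% of all genes that were lower. They were the scaffold BCAR1 (-1.56 ± 0.37) and the exchange factor DOCK1 (-1.13 ± 0.34). PTK2, focal adhesion kinase, had a log2 fold change of 0.30 ± 0.13 (adjusted p = 0.815). Of 11 genes for the release of TGF-beta by integrins, 3 were lower and 0 higher (median -0.19), namely LRRC32 (-3.77 ± 1.16), TGFB2 (-1.77 ± 0.60) and LTBP2 (-2.56 ± 0.98). These were at 4.87 ± 8.2, 11.4 ± 13.7 and 29.0 ± 48.0 CPM in WT libraries (SD, n = 6 each). In KO libraries they were at 0.349 ± 0.442, 3.38 ± 3.01 and 4.94 ± 5.18 CPM.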

How the data were processed

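Polyadenylated RNA of 12 iMGL cultures was sequenced as paired ends after a TruSeq v2 preparation. The authors trimmed adapters and used STAR for alignment to hg38, and the deposited values are estimated counts for each gene with no scaling between libraries; the counting tool is not given in the sources used here. Between 10.8% and 11.5% of values per library were not whole, so counts were rounded, and then summed per clone. Because the plan had assumed whole counts, this rounding was an added step. Depth was 24153233 to 28406943 counts per library.

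Genotypes were compared over 3 clones each with edgeR 4.0.16 in R 4.3.3 (TMM, filterByExpr, quasi-likelihood test, Benjamini-Hochberg adjustment at 0.05). Standard errors were derived from the F statistic. Differentiation, interaction and the slope on log2 CPM of COL1A1 (prior count 2) were fitted on 12 libraries with clone as a fixed effect. Alternatives used DESeq2 1.42.0, limma 3.58.1, RLE normalization, no expression filter, left-out clones or libraries and COL1A1 as a covariate. The authors' mixed model (DREAM) was represented by the limma fit with clone as a random effect. For the genotypes, COL1A1 was added as a covariate to this limma fit and not to the edgeR fit. Tests recovered changes made in simulated counts of well-expressed genes. That simulation had a small spread and no differences between clones or cultures, so it does not show the power of the tests in these data.

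Differentiation numbers are batches per the labels and therefore pair libraries, although same-numbered libraries of different genotypes correlated at a mean r of only 0.0323 (18 pairs), against -0.0312 for unlike numbers. TPM, coordinates and overlaps used GENCODE version 44. Upstream sequences came from RefSeq, which had a window for 25 of the 35 members. Members, COL1A1, LACTB and the 3 genes with the smallest p of each partner list are named, except 1 member that is counted but not reported here, and marker genes were singled out after their values were seen. The members and lists were chosen with earlier results of these data known.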

Additional observations from a re-analysis of the deposited data

Results flagged for a closer look

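In each genotype the 6 libraries were searched for one whose CPM stood apart from the rest by Dixon's ratio. The cutoff is one that about 1 of 20 groups of normally distributed values pass. Of 74 groups, 23 had such a library, against 3.7 at that rate. CPM of few counts or wide range need not be normally distributed, so 3.7 is not a chance level for these data. A group with counts in 1 library only, such as LAMB4 in each genotype, always passes. The genes and libraries are not independent.

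In WT, J1 stood apart with LAMA1 at 57.4 CPM (the next library had 3.97), LAMA3 at 5.90 (0.951), ITGA11 at 149.7 (52.0) and ITGA8 at 0.150 CPM, which is 4 counts. K2 stood apart with LAMA4 at 14.2 CPM (0.527), ITGB1 at 568.1 (480.4), ITGB6 at 0.423 (12 counts) and LACTB at 98.1 CPM (80.5). J2 stood apart with ITGA9 at 22.9 CPM (12.7) and LAMB3 at 13.1 (4.05).

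In LACTB KO, B2 stood apart with COL1A1 at 446.1 CPM (the next library had 49.4), LAMB1 at 14.6 (4.64), LAMA4 at 4.10 (0.187), LAMA2 at 2.93 (0.148), ITGA11 at 12.8 (1.77), ITGA1 at 11.2 (2.28), ITGA7 at 14.4 (6.25) and LAMB2 at 10.5 (4.27). ITGB1 was at 474.8 CPM in A1 (449.5).

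The remaining flags rested on 1 to 4 counts, with ITGA8 at 0.166 CPM in A1, ITGB6 at 0.144 CPM in C1, and LAMB4 at 0.0352 CPM in L1 and 0.0723 CPM in B1.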

How the results depend on the processing

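The count of 10 members lower in LACTB KO became 3 by limma voom with COL1A1 as a covariate and 3 by limma voom without it. It was 5 in differentiation 2 alone, 2 without J1 and K2, and 6 to 12 with 1 clone left out. Over all genes the main count of 977 became 239, 504, 372 and 349, and 461 to 1625, in the same order of fits. The cause was not tested. The adjusted threshold was passed by 4 members with DESeq2 and by 1 with no expression filter (ITGA3, adjusted p = 0.0331), where more genes were tested. With the differentiation as a replicate block the count was again 10 and no call of a member changed. The count of 10 rising slopes was 2 without J1 and K2, and 3 to 10 with 1 clone left out. Over all genes the 427 rising slopes became 66 and 147 to 419 in these fits. The other counts, those of differentiation and interaction included, stayed within 1.5 times their value in every fit run, and the LACTB difference kept its sign. Among fold changes of single members, 39 of the alternative values had the opposite sign, and all but those of LAMA3 concerned members with an unadjusted p over 0.05. In differentiation 1 alone these were ITGAL (-0.15), ITGB5 (0.018), ITGAE (0.14), ITGA9 (0.16) and LAMB3 (0.13), and in differentiation 2 alone ITGA2B (-0.10), ITGA6 (-0.030), ITGA4 (-0.020) and ITGA2 (0.0069). With COL1A1 as a covariate they were ITGA2B (-0.036), LAMA3 (0.11), LAMA4 (1.56), LAMA2 (0.54) and ITGA1 (0.30), without J1 and K2 LAMA2 (0.51) and ITGA1 (0.10), and by limma voom ITGA6 (-0.011). With 1 clone left out, values ran from -0.25 to 0.27 for ITGA2B, -0.15 to 0.0029 for ITGB5, -0.20 to 0.023 for ITGAE, -0.10 to 0.16 for ITGA6, -0.29 to 0.40 for ITGB8, -4.86 to 1.96 for LAMA4, -0.039 to 0.11 for ITGA4, -1.49 to 0.50 for ITGAD, -0.058 to 0.21 for ITGA5, -0.13 to 0.041 for ITGA2 and -0.96 to 0.17 for ITGB3. With 3 clones a genotype, small differences in members of few counts were not detectable. Larger differences could also miss the adjusted threshold, which 0 of 17577 genes passed in the main fit. LACTB itself was thus not called, at a mean log2 difference of -2.38 over clones.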
